A study of Mus musculus with 2 samples.

Results

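The surface molecules that define the developmental stages of invariant natural killer T (iNKT) cells, and the coreceptors of T cells, were followed in the RNA of sorted stage 1 iNKT cells. The genes were the rows of both genotype tables with the symbols Cd24a, Cd44, Klrb1c, Il2rb, Cd4, Cd8a and Cd8b1, which is 7 of the 16386 genes in the files. All 7 were found and all 7 passed the filter on low values, a mean FPKM of 1 or more over the libraries. One library came from Uhrf1 KO mice and 1 from wild-type (WT) mice, both of C57BL/6 background and 5 weeks of age. The cells of both were taken fresh from the thymus, stained with surface antibodies and sorted. The antibodies and gates, the number of mice pooled in a library, and the promoter or allele behind the Uhrf1 deletion are not stated in the sources used here. The comparison serves as a check of stage 1 identity and purity. Since each genotype had 1 library, the differences below have no replicate error and no p-value.

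Invariant NKT cells arise from CD4 CD8 double-positive thymocytes and recognise lipids on CD1d through a semi-invariant T cell receptor. Their maturation in the mouse thymus is staged by surface protein. Stage 0 cells carry high CD24, stage 1 cells have lost CD24 and still have low CD44 and no NK1.1, stage 2 cells have gained CD44, and stage 3 cells have gained NK1.1 and CD122. Cd24a encodes CD24, Klrb1c encodes NK1.1 and Il2rb encodes CD122. Mouse thymic iNKT cells past stage 0 carry CD4 or neither coreceptor, while CD8 is a mark of double-positive thymocytes and of conventional CD8 T cells. Where the gate used CD24, CD44 or NK1.1 protein, the transcript of that gene describes the gate as well as the genotype.

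The KO library held 12189861 reads in genes and the WT library 26005836. FPKM, the unit used here, corrects reads for transcript length and library size. Uhrf1, which recruits the maintenance DNA methyltransferase to newly copied DNA, had 0.626 FPKM in the KO (25 reads) and 35.3 FPKM in the WT (3032 reads). A gene is called higher or lower below when log2((KO FPKM + 1) / (WT FPKM + 1)), KO over WT, is at least 1 in size. Of the 9955 measured genes, those with a mean FPKM of 1 or more, 44.9% passed that rule, 21.3% as higher and 23.6% as lower in the KO, and their median log2 ratio was -0.0048. Folds are ratios of the files' scaled counts, and their 95% intervals cover counting error only.

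Against that background, 4 of the 7 genes passed the rule, Cd44 as higher and Cd24a, Klrb1c and Il2rb as lower in the KO. The 3 coreceptor genes stayed within it. With 7 genes, and with 44.9% of all genes past the rule, the count by itself says little about these genes. The median log2 ratio of the 7 genes was 0.18.

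**Figure D1:**
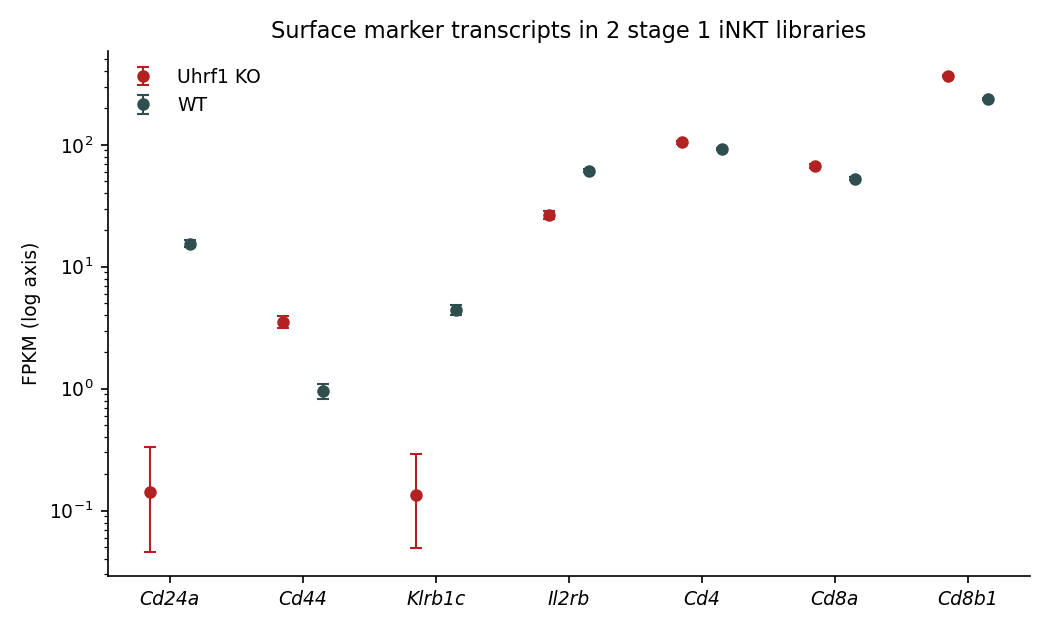
FPKM (log axis) of the 7 genes in the Uhrf1 KO library and the WT library, with 95% Poisson intervals of the reads, which cover counting error only. Cd24a and Klrb1c lie at 0.142 and 0.135 in the KO, against 15.5 and 4.42 in the WT, while Cd4, Cd8a and Cd8b1 lie at 52.6 or above in both libraries.

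Cd24a, whose product is a small GPI-anchored glycoprotein lost as thymocytes mature, was the gene of the set that differed most. It had 0.142 FPKM in the KO (interval 0.0460 to 0.331) and 15.5 FPKM in the WT (interval 14.6 to 16.4). These levels rest on 5 reads in the KO and 1109 in the WT. The transcript was thus at the edge of detection in the KO library and plainly present in the WT library. By scaled counts Cd24a was 104-fold lower in the KO (interval 44.4 to 321), and its log2 ratio was -3.85. Among all measured genes 129, or 1.30%, were at least as far below the WT. Cd24a (Entrez gene 12484) lies on chromosome 10 at 43579169 to 43584265 of mm10, and no other gene in the files shares its locus.

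Other genes of the double-positive thymocyte, the stage that still carries CD24, did not all go with Cd24a. Of 17 measured genes of that list, Cd24a left out, 6 were lower and 3 higher in the KO, and the median log2 ratio was -0.03. Rag1, which cuts the receptor gene segments during recombination, had 1.66 FPKM in the KO and 13.3 FPKM in the WT. Rag2, its partner, had 1.50 FPKM in the KO and 4.49 FPKM in the WT, and Ptcra, the pre-T cell receptor alpha chain, had 1.50 FPKM in the KO and 9.42 FPKM in the WT. Thus Rag1, Rag2 and Ptcra were low in the KO and moderate in the WT, like Cd24a but by a smaller factor. Dntt, the terminal transferase, had 36.8 FPKM in the KO and 37.7 FPKM in the WT, and Rmnd5a had 17.5 FPKM in the KO and 14.8 FPKM in the WT. Slc16a5, Mns1 and Spo11 were the 3 that were higher, with Mns1 at 52.3 FPKM in the KO and 18.0 FPKM in the WT. Rag2 and Mns1 each share their locus in the files with another gene. In bulk samples such as these, fewer cells of a type and less RNA per cell cannot be told apart.

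Cd44, which encodes a hyaluronan receptor that rises between stage 1 and stage 2, was the gene of the set that was higher in the KO. It had 3.51 FPKM in the KO (interval 3.14 to 3.91) and 0.950 FPKM in the WT (interval 0.816 to 1.10). Its reads numbered 327 in the KO and 179 in the WT, and by scaled counts it was 3.90-fold higher (interval 3.24 to 4.70). The gene stood in the middle of the range of all genes, at percentile 55.6 in the KO library and percentile 41.6 in the WT library. The log2 ratio was 1.21, and with a pseudocount of 5 in place of 1 it was 0.52, short of the rule. Cd44 (Entrez gene 12505) lies on chromosome 2 at 102811142 to 102901665. At least as large a log2 ratio was held by 17.7% of measured genes.

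Adhesion and activation genes that are read beside CD44 on T cells were divided. Of 17 measured genes of that list 5 were higher and 2 lower in the KO, and the median log2 ratio was 0.49. Cd69, an early activation marker that also retains cells in the thymus, had 43.4 FPKM in the KO and 6.74 FPKM in the WT. The integrin chain Itgb7 had 207 FPKM in the KO and 74.5 FPKM in the WT; Itga4 and Ly6c2 were higher too. Itgae, the CD103 integrin chain, had 16.1 FPKM in the KO and 56.2 FPKM in the WT, and Il7r, the interleukin-7 receptor, had 34.9 FPKM in the KO and 77.2 FPKM in the WT. Ezr, Rdx and Msn, whose products tether the CD44 tail to actin, stayed within the rule, with Msn at 114 FPKM in the KO and 70.5 FPKM in the WT. Itgae, Itga4 and Rdx each share their locus with another gene in the files, so their reads are uncertain where strand was not used.

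Klrb1c, the NK1.1 gene, was lower in the KO. It had 0.135 FPKM in the KO (interval 0.0496 to 0.294) and 4.42 FPKM in the WT (interval 4.003 to 4.86), on 6 reads in the KO and 416 in the WT. NK1.1 transcripts were therefore almost absent from the KO library, and the WT library held them at a modest level, percentile 57.2 of all genes. The fold was 32.5-fold lower in the KO (interval 14.8 to 89.1) and the log2 ratio was -2.25. With a pseudocount of 5 the log2 ratio was -0.87, short of the rule. Klrb1c (Entrez gene 17059) lies on chromosome 6 at 128778485 to 128788641, in the cluster of killer cell lectin-like receptors.

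The nearest relatives of Klrb1c were low in both libraries. Klrb1a had 1 read in the KO and 1 in the WT. Klrb1f, a paralog, had 0 reads in the KO and 38 in the WT, which is at least 5.94-fold lower against a floor of 3 reads in the KO library. The ligands of the family were better expressed and stayed within the rule: Clec2d had 37.2 FPKM in the KO and 27.5 FPKM in the WT, and Clec2i, at a locus shared with another gene, had 32.3 FPKM in the KO and 17.6 FPKM in the WT. Klrb1 genes are similar in sequence, so single members are uncertain where reads could be shared. Of the other receptors of the cluster 4 were measured, and they went both ways. Klrk1, which encodes the activating receptor NKG2D, had 0.391 FPKM in the KO and 2.92 FPKM in the WT. Klra5 stayed within the rule, with 0.582 FPKM in the KO and 1.87 FPKM in the WT. Klrd1, the CD94 chain, did not pass the filter and had 6 reads in the KO and 55 in the WT. Klra1, a Ly49 receptor, had 20.1 FPKM in the KO and 1.38 FPKM in the WT, and Klra8 had 76 reads in the KO and 0 in the WT. Klra1 and Klra8 stand on a locus that the files give to 7 genes, so the Ly49 values cannot be assigned to single members. The FPKM values of Klrb1c, Klrk1 and Klrd1 were thus lower in the KO, while those of Klra1 and Klra8 were higher.

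Genes of stage 3 and of the T-bet positive NKT1 subset were more often higher than lower, unlike NK1.1. Of 14 measured, 8 were higher and 4 lower in the KO, and the median log2 ratio was 1.35. Tbx21, the gene of T-bet, had 13.0 FPKM in the KO and 1.94 FPKM in the WT. Xcl1, a chemokine of NK and NKT1 cells, had 55.5 FPKM in the KO and 1.33 FPKM in the WT. Gzma, a granzyme, had 0.156 FPKM in the KO and 45.4 FPKM in the WT, so effector genes of the list were found on both sides.

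Promoter sequence shows what the DNA just before the starts of Cd44 and Klrb1c offers to CG methylation, the mark that Uhrf1 helps to maintain. Bases after the start were not counted, and methylation was not measured here. The table of RefSeq promoters (GRCm38.p6) matched 3 of the 7 genes, Cd44, Klrb1c and Cd8a. The 250 bases before the start are printed 5′ to 3′ on the strand of the gene, with each CG in capitals, for the pair of stage genes that went opposite ways. That of Cd44 is chr2:102901666-102901915 on the minus strand, and that of Klrb1c is chr6:128788642-128788891 on the minus strand.
Cd44: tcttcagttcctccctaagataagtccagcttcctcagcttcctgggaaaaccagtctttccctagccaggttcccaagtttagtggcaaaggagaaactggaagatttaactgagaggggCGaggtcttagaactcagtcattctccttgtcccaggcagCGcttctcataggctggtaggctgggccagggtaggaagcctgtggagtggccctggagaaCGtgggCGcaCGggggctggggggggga
Klrb1c: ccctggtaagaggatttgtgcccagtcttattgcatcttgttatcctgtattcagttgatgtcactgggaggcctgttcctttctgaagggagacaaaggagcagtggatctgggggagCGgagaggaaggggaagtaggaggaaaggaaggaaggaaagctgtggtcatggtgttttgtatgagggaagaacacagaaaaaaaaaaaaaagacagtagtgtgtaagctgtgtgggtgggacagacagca
The motif searched was CG, which reads the same on both strands. Cd44 held 5 and Klrb1c 1, while Cd8a (chr6:71373177-71373426, plus strand) held 0. Over 32851 promoters of the same length the median was 6, and 92.1% held at least 1. At least 5 were held by 55.6% of them, so the Cd44 window was ordinary and the Klrb1c and Cd8a windows were poor in CG.

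Il2rb, the signalling chain of the interleukin-2 and interleukin-15 receptors, was lower in the KO. It had 26.5 FPKM in the KO (interval 24.6 to 28.4) and 61.2 FPKM in the WT (interval 59.3 to 63.2), on 753 reads in the KO and 3924 in the WT. The gene was thus well expressed in both libraries, at percentile 81.7 in the KO and 91.0 in the WT, although CD122 protein is usually read as a late iNKT marker. By scaled counts it was 2.44-fold lower in the KO (interval 2.26 to 2.64), with a log2 ratio of -1.18. A log2 ratio at least as low was held by 20.8% of measured genes. Il2rb (Entrez gene 16185) lies on chromosome 15 at 78480549 to 78495066.

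The partners of CD122 did not share one direction. Il2rg, the common gamma chain, had 320 FPKM in both libraries, on 6879 reads in the KO and 15099 in the WT. Its level was 12.1 times that of Il2rb in the KO (interval 11.2 to 13.1) and 5.23 times in the WT (interval 5.05 to 5.42). Il2ra, the high-affinity interleukin-2 receptor chain, had 0.217 FPKM in the KO and 2.69 FPKM in the WT, 11.9-fold lower (interval 7.60 to 19.6). The alpha and beta chains of the interleukin-2 receptor were thus both lower in the KO and the gamma chain was level. Il15ra, which presents interleukin-15, was at 0 reads in both libraries. Of the signalling partners downstream, Stat5a was higher, with 19.8 FPKM in the KO and 7.12 FPKM in the WT. Stat5b, with 29.1 FPKM in the KO and 14.9 FPKM in the WT, stayed within the rule, as did Jak1 and Jak3, which each share a locus with another gene. In all, 1 of the 7 measured genes of this list was higher and 1 lower in the KO, with a median log2 ratio of 0.43.

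In FPKM, the coreceptor genes were the most abundant of the set in both libraries but for Cd8a in the WT, which stood below Il2rb. That order depends on length, since Cd8a had 5576 reads in the WT and Il2rb 3924. The implied lengths in the WT were 4076 bases for Cd8a and 2464 for Il2rb. Cd4, which binds MHC class II and brings Lck to the receptor, had 105 FPKM in the KO (interval 101 to 108) and 92.3 FPKM in the WT (interval 90.2 to 94.5). Cd8a, the alpha chain of the MHC class I coreceptor, had 67.2 FPKM in the KO (interval 64.9 to 69.5) and 52.6 FPKM in the WT (interval 51.2 to 54.0). Cd8b1, the beta chain, had 367 FPKM in the KO (interval 358 to 376) and 237 FPKM in the WT (interval 232 to 242). All 3 were a little higher in the KO, with log2 ratios of 0.18 for Cd4, 0.35 for Cd8a and 0.63 for Cd8b1, none of which passed the rule.

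The folds by scaled counts were 1.08 for Cd4 (interval 1.04 to 1.12), 1.29 for Cd8a (interval 1.24 to 1.35) and 1.50 for Cd8b1 (interval 1.46 to 1.55). Counting error alone is therefore smaller than these differences, and the spread between preparations is unknown. Among measured genes 43.6%, 38.2% and 30.0% had log2 ratios at least as high as those of Cd4, Cd8a and Cd8b1. Reads numbered 3728 in the KO and 7360 in the WT for Cd4, 3378 in the KO and 5576 in the WT for Cd8a, and 6371 in the KO and 9034 in the WT for Cd8b1.

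Transcripts of both CD8 chains thus stood high in libraries labelled as a cell type that mostly lacks CD8 protein. Cd8b1 lay at percentile 97.8 of all genes in the KO and 96.9 in the WT, and Cd8a at percentile 91.0 in the KO and 89.8 in the WT. In FPKM, Cd8b1 was 3.50 times Cd4 in the KO (interval 3.36 to 3.64) and 2.57 times Cd4 in the WT (interval 2.49 to 2.65). Against Cd3e, a chain of the receptor complex that every T cell carries, the level of Cd8b1 was 1.35 times in the KO (interval 1.31 to 1.40) and 0.988 times in the WT (interval 0.961 to 1.02). In FPKM Cd4 held a nearly equal share of Cd3e in both, 0.387 times in the KO (interval 0.371 to 0.403) and 0.385 times in the WT (interval 0.374 to 0.397). In reads alone the ratio of Cd4 to Cd3e was 0.621 in the KO and 0.672 in the WT. The CD8 transcripts are thus a property of both libraries and not of the KO alone, and whether CD8 protein was on the sorted cells was not measured here.

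The balance between the CD8 chains depends on the length each gene is divided by. Cd8b1 was 5.46 times Cd8a in FPKM in the KO (interval 5.23 to 5.69) and 4.50 times in the WT (interval 4.36 to 4.66). In reads alone the ratio was 1.89 in the KO and 1.62 in the WT. The files imply a length near 4076 bases for Cd8a and 1466 for Cd8b1 in the WT, while the longest transcripts of GENCODE M21 hold 3128 bases for Cd8a and 1483 for Cd8b1. Reads per longest transcript gave 3.98 in the KO and 3.42 in the WT. Cd8b1 stood above Cd8a by each of these measures, and the KO value was the higher one in each.

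Regulators of the coreceptor genes gave a mixed picture. Of 18 measured, 2 were higher and 2 lower in the KO, and the median log2 ratio was 0.03. Zbtb7b, which encodes ThPOK, the factor of the CD4 lineage, had 36.2 FPKM in the KO and 22.7 FPKM in the WT at a locus it shares with another gene. Runx3, which silences Cd4 in CD8 cells, had 23.0 FPKM in the KO and 37.2 FPKM in the WT. Both stayed within the rule, as did Satb1, Bcl11b, Ikzf1 and Runx1. Lef1 had 244 FPKM in the KO and 114 FPKM in the WT, and Tcf3, which encodes the E protein E2A, had 83.2 FPKM in the KO and 32.9 FPKM in the WT. These were the pair of regulators called higher, and Tox and Gata3 were the pair called lower. Tox, needed for the CD4 lineage and for NKT cells, had 12.1 FPKM in the KO and 40.7 FPKM in the WT, and Gata3 had 24.4 FPKM in the KO and 56.9 FPKM in the WT. Dnmt1, which maintains DNA methylation and with it the silent state of Cd4 in CD8 T cells, had 43.6 FPKM in the KO and 61.1 FPKM in the WT.

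Partners of the coreceptors in the T cell receptor complex were strongly expressed in both libraries. Cd3d had 1110 FPKM in the KO and 951 FPKM in the WT, and Cd3e had 271 FPKM in the KO and 240 FPKM in the WT. Lck, the kinase carried by both coreceptors, had 1006 FPKM in the KO and 501 FPKM in the WT, and Ptprc, the CD45 phosphatase that activates it, had 123 FPKM in the KO and 61.0 FPKM in the WT. Both lay on the edge of the rule, with log2 ratios of 1.00. Zap70, the kinase that Lck activates, had 110 FPKM in the KO and 328 FPKM in the WT and was the 1 gene lower of the 12 measured. The median log2 ratio of the 12 was 0.32.

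**Figure D2:**
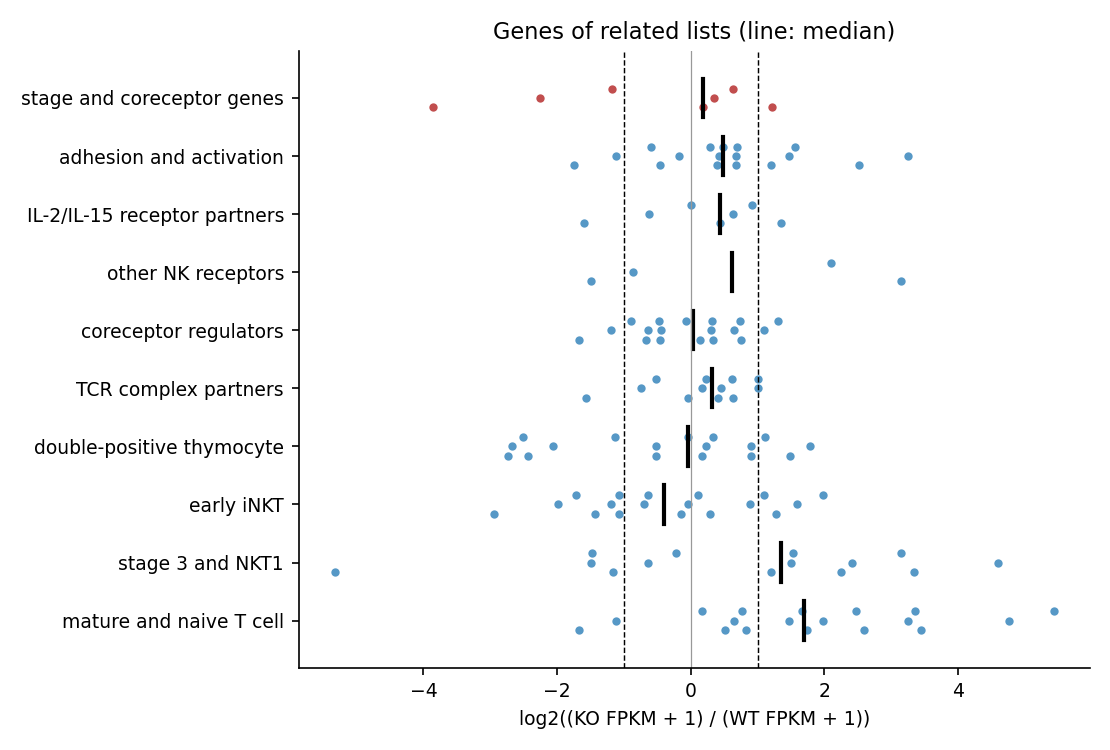
log2((KO FPKM + 1) / (WT FPKM + 1)) of each measured gene in 10 lists, with the median of each list as a line and the size rule of 1 as dashed lines. The 7 genes spread from -3.85 to 1.21 around a median of 0.18, and the mature and naive T cell list has the median farthest to the right, 1.70.

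The order of FPKM levels within a library differed between the genotypes. In the KO it ran from Cd8b1 through Cd4, Cd8a, Il2rb and Cd44 to Cd24a and Klrb1c. In the WT it ran from Cd8b1 through Cd4, Il2rb, Cd8a, Cd24a and Klrb1c to Cd44, the lowest. The counting intervals of neighbours in these orders were apart except for Cd24a and Klrb1c in the KO, whose levels of 0.142 and 0.135 FPKM could not be separated at this depth. Cd44, the lowest of the set in the WT, thus stood above Cd24a and Klrb1c in the KO. These intervals do not cover error in the length of a gene, and Cd8a had more reads than Il2rb in the WT.

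**Figure D3:**
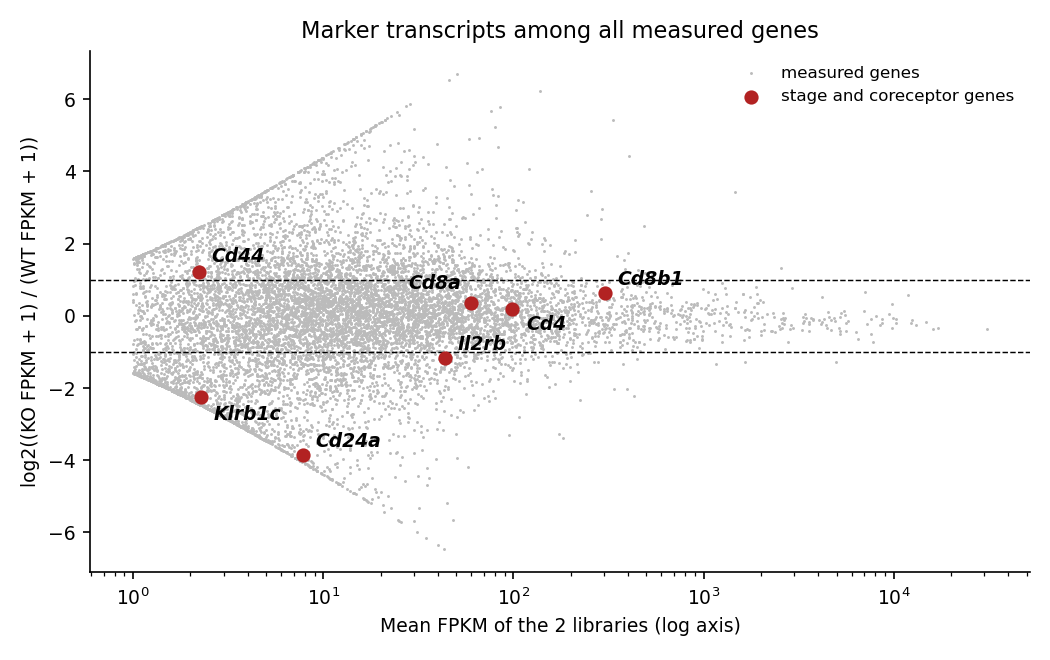
log2((KO FPKM + 1) / (WT FPKM + 1)) against the mean FPKM of the 2 libraries (log axis) for 9955 measured genes in grey and the 7 marker genes in red, with the size rule of 1 as dashed lines. Klrb1c and Cd24a lie close to the lower edge, where KO values approach 0, and Cd4, Cd8a and Cd8b1 lie between the dashed lines.

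Of the 7 genes, 4 are on chromosome 6. Cd8b1 (Entrez gene 12526, 71322812 to 71337451) and Cd8a (Entrez gene 12525, 71373427 to 71379171) are neighbours 36.0 kb apart, and Cd4 (Entrez gene 12504, 124864693 to 124888209) lies far from them. The closest measured genes on either side gave 12 genes outside the set, of which 5 were higher, 5 lower and 2 within the rule, against 44.9% past the rule among all genes. These neighbours were named after their values were seen. Krcc1 and Rmnd5a, on the outer sides of the CD8 pair, stayed within the rule like the pair itself, with Krcc1 at 34.9 FPKM in the KO and 32.6 FPKM in the WT. Lag3, a CD4-related inhibitory receptor 16.2 kb from Cd4, had 0.360 FPKM in the KO and 6.20 FPKM in the WT, while Cd4 itself was within the rule. Slc1a2 and Pdhx beside Cd44 were higher as Cd44 was, and Kctd17 and C1qtnf6 beside Il2rb were lower as Il2rb was, with Kctd17 at 6.92 FPKM in the KO and 21.9 FPKM in the WT. Fkbp4, 340 kb from Klrb1c, and BC035044, 59.4 kb from it, were higher while Klrb1c was lower. Fkbp4 had 146 FPKM in the KO and 69.7 FPKM in the WT. On the sides of Cd24a, which was lower, 1700021F05Rik at 38.2 kb was lower, with a log2 ratio of -1.86. Qrsl1, at 290 kb, was higher, with a log2 ratio of 2.59.

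By distance in log2(FPKM + 1) over the 2 libraries, the genes with the most similar values were Sapcd2 and Tefm for Cd24a, Smug1 and D2hgdh for Cd44, and Phf15 and Krt10 for Klrb1c. For Il2rb they were Hscb and Acaa1b, for Cd4 Utp3 and Spn, for Cd8a Snapc5 and Ap1b1, and for Cd8b1 Bst2. Sapcd2 had 0.0925 FPKM in the KO and 15.7 FPKM in the WT, a distance of 0.066 from Cd24a. The likeness is one of level in 2 libraries only.

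Lineage and cell type markers were set beside these values as a measure of purity. Zbtb16, which encodes PLZF, the factor that defines NKT cells, had 41.9 FPKM in the KO and 114 FPKM in the WT. The lineage gene was thus present in both libraries, and it was called lower in the KO, with a log2 ratio of -1.42. Cd8b1 was 8.75 times Zbtb16 in the KO (interval 8.35 to 9.16) and 2.07 times in the WT (interval 2.02 to 2.13). Among 18 early iNKT genes 4 were higher and 7 lower in the KO. Their levels summed to 2157 FPKM in the KO and 2443 FPKM in the WT. Id3 was the largest part of both sums, with 1013 FPKM in the KO and 827 FPKM in the WT. Of the 4 higher, Ccr7, also in the mature and naive T cell list, had 249 FPKM in the KO and 62.7 FPKM in the WT. Of the 7 lower, Icos had 62.0 FPKM in the KO and 247 FPKM in the WT. The 19 genes of mature single-positive and naive T cells summed to 5076 FPKM in the KO and 1958 FPKM in the WT, and 11 of 18 measured were higher and 2 lower. Dapl1, a gene of naive T cells, was the most distant of them, with 651 FPKM in the KO and 14.1 FPKM in the WT. The part of such cells in the CD8 and CD44 values was not tested.

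Genes of CD8 T cells other than the coreceptors summed to 807 FPKM in the KO and 526 FPKM in the WT, with 4 of 8 measured higher and 2 lower. Nkg7 was the largest part of both sums, with 567 FPKM in the KO and 196 FPKM in the WT. Nkg7, Xcl1 and Tbx21, which were among the 4 higher, are also in the list of stage 3 and NKT1 genes. The 2 lower genes were Itgae and Cst7, with Cst7 at 46.2 FPKM in the KO and 171 FPKM in the WT. Crtam, a receptor of activated CD8 T cells, had 368 reads in the KO and 0 in the WT, at least 262-fold higher. Eomes, a defining factor of CD8 memory and NK cells, had 0 reads in the KO and 1 in the WT, and Gzmm was at 0 in both. Genes of CD4 T cells other than Cd4 summed to 466 FPKM in the KO and 476 FPKM in the WT, with 2 of 7 higher and 3 lower. Those of regulatory T cells summed to 489 FPKM in the KO and 192 FPKM in the WT, with 5 of 10 higher and 3 lower. Tnfrsf18 and Tnfrsf4 made up most of the KO sum, and both were higher. Tnfrsf18 had 340 FPKM in the KO and 79.3 FPKM in the WT. The 3 lower genes were Il2ra, Nrp1 and Itgae, with Itgae at 16.1 FPKM in the KO and 56.2 FPKM in the WT. Foxp3, which defines regulatory T cells, had 2.63 FPKM in the KO and 0.227 FPKM in the WT at a locus it shares with 3 genes.

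Gamma-delta T cell genes were the list most depleted in the KO, with 7.17 FPKM in sum in the KO and 177 FPKM in the WT. Of 5 measured genes 4 were lower and none higher. Blk had 0 reads in the KO and 2885 in the WT. NK cell genes, of which 10 of 13 names were found, summed to 292 FPKM in the KO and 86.0 FPKM in the WT. Among them Eomes, Prf1, Sh2d1b1, Cd244 and Il18rap were at 0 reads in the KO and at 2 or fewer in the WT. Itga2 had 0 reads in the KO and 6 in the WT. Klra8, on the locus given to 7 genes, had 76 reads in the KO and 0 in the WT. Most of the KO sum was Fcer1g and Tyrobp, which myeloid cells also express, at 191 FPKM and 97.2 FPKM in the KO and 19.8 FPKM and 20.7 FPKM in the WT. The granzyme gene Gzma went the other way, with 0.156 FPKM in the KO and 45.4 FPKM in the WT, where it was the largest single part of the sum.

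Non-lymphoid marker lists had higher sums in the KO library, though not every gene in them did. Myeloid and dendritic cell genes summed to 3250 FPKM in the KO and 599 FPKM in the WT, with 7 of 11 measured higher and 2 lower. Apoe made up most of this in the KO, with 2677 FPKM in the KO and 246 FPKM in the WT. C1qa, C1qb, C1qc, Lyz2, Cd68 and Fcgr3 were higher too. C1qb had 183 FPKM in the KO and 23.2 FPKM in the WT, and Lyz2 had 85.7 FPKM in the KO and 14.3 FPKM in the WT. Csf1r, which did not pass the filter, had 62 reads in the KO and 6 in the WT, while Itgax, Flt3 and Fcgr1 were at 0 in both. The lower genes were the neutrophil and monocyte genes S100a8, with 0 FPKM in the KO and 86.4 FPKM in the WT, and S100a9, with 0.908 FPKM in the KO and 95.6 FPKM in the WT. Some dendritic cells carry CD8 alpha, and Xcr1, which marks them, had 1.13 FPKM in the KO and 0.825 FPKM in the WT. Erythroid genes summed to 1872 FPKM in the KO and 392 FPKM in the WT, and thymic epithelial and stromal genes to 105 FPKM in the KO and 33.6 FPKM in the WT. B cell genes summed to 16.7 FPKM in the KO and 17.7 FPKM in the WT, most of it Cd79b, and Ms4a1 and Pax5 were at 0 in both. The part of these cells in the 7 marker values was not tested.

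**Figure D4:**
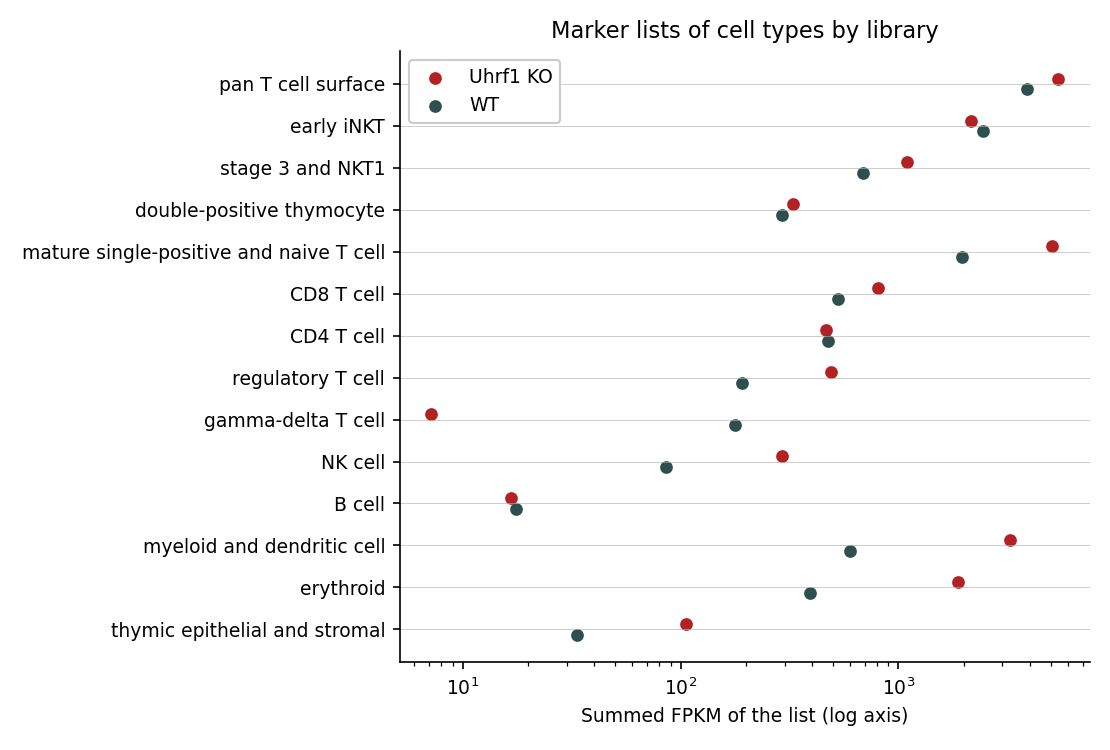
Summed FPKM (log axis) of the found genes of 14 cell type lists in the Uhrf1 KO library and the WT library, with the 7 marker genes left out of the lists. Gamma-delta T cell genes sum to 7.17 in the KO and 177 in the WT, while myeloid, erythroid, stromal and naive T cell genes sum to more in the KO.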

How the data were processed

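RNA of sorted thymic stage 1 iNKT cells was measured by TruSeq RNA libraries, per the labels' protocols, with 1 library of Uhrf1 KO and 1 of WT cells, grouped by the genotype label. The tools were TopHat2 2.0.9 and Cufflinks 2.1.1 and the build was mm10, per the submitters' processing notes. Their roles and the annotation are not stated in the sources used here. The authors deposited an FPKM value per gene. They also deposited a scaled signal, which the file headers call a count. Most signal values were whole multiples of 1.70 in the KO and 0.799 in the WT, which was taken as the worth of 1 read. With a tolerance of 0.01 of a read, widened for large values to the digits given, 98.6% of genes with reads were whole in the KO and 98.1% in the WT. All 7 marker genes were whole. No count model was fitted.

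Log2 ratios used a pseudocount of 1, which understates changes of low genes. A gene was measured if its FPKM averaged 1 or more over the libraries. Folds have Clopper-Pearson intervals and levels exact Poisson intervals, both at 95% and for counting error only, because reads amplified by PCR and lacking molecular identifiers are not separate molecules. A library at 0 reads was set to a floor of 3 reads. Starts were made 1-based. The marker genes and the 21 lists were chosen with earlier results of these data known; 266 of 297 listed names were found, 3 by gene identifier or synonym, and marker genes were left out of all other lists. Named genes were the 7, genes of the related lists with preference for large ratios, and the 2 closest in level to each; others are said to be named after their values were seen, or serve as defining markers. A few genes are not reported here. The steps were tested on simulated data. Alternatives were 10 settings of pseudocount, filter, size rule, scaling and unit. The tools were scipy 1.17.1, numpy 2.4.6 and pandas 2.3.3 under Python 3.11.15, with matplotlib 3.10.9 for figures.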

Additional observations from a re-analysis of the deposited data

How the results depend on the processing

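No paired analysis was possible because each genotype had 1 library, and no library could be left out. Over the 6 alternatives of pseudocount, scaling and unit, none of the 42 values of the 7 genes changed sign, and 2 lost their call, both with a pseudocount of 5: Cd44 at 0.52 and Klrb1c at -0.87. That pseudocount left 0 of the 7 genes higher, and it left 1292 of all measured genes higher and 1254 lower. With a size rule of 0.5, 2 of the 7 genes were higher, as were 3332 of all genes, while in the 6 lists of related genes 23 were higher and 15 lower, against 12 and 7 in the values above. With a size rule of 2, 0 of the 7 genes were higher. Among all genes 851 were then higher and 1026 lower, and in the related lists 4 and 0. With the filter at a mean FPKM of 5, which leaves out Cd44 and Klrb1c, 0 of the 7 genes were higher, and 1247 of all genes were lower. Upper-quartile scaling moved the median log2 ratio of all genes to -0.12; Cd4 was then at 0.052 and Cd8b1 at 0.50. The level of Cd8b1 over Cd8a was 1.89 in reads and 3.98 in reads per longest transcript in the KO, and 1.62 and 3.42 in the WT; both measures were chosen after seeing the data. Depth limits Cd24a and Klrb1c in the KO, which rest on 5 and 6 reads.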
